A study of Mus musculus with 4 samples.

Results

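Nucleotide synthesis was examined through 43 genes for the enzymes that build, recycle and break down purines, pyrimidines and deoxynucleoside triphosphates (dNTPs), chosen by name and by role in the pathway. Of these 43 genes, 42 had a probe set on the array that carries their symbol alone, out of 19938 such genes in all, and Impdh2 was not analysed here. RNA came from proliferating cultures of mouse erythroid cells. The leukemic cells were MEL, an established murine erythroleukemia line, here 1 clone (DS19) that stably carries Gata-1 fused to the ligand-binding domain of the estrogen receptor, grown in DMEM with serum and puromycin. ES-EP cells are erythroid progenitors derived from embryonic stem cells, untransformed and grown in StemPro34 medium with Epogen, IGF-1, dexamethasone and stem cell factor. Each cell type was measured in 2 duplicate cultures, A and B, with 1 Affymetrix Mouse Gene 1.0 ST array per culture. Cell type and medium cannot be told apart in this design.

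Dividing cells make purines and pyrimidines along separate routes. The purine ring is assembled on phosphoribosyl pyrophosphate (PRPP) until IMP is reached, from which AMP and GMP branch off, whereas the pyrimidine ring is closed first and then joined to PRPP to give UMP. Ribonucleotide reductase turns ribonucleotides into the deoxy forms used for DNA, and salvage enzymes return free bases and nucleosides to the pool. Many steps have more than 1 isozyme, a separate gene for the same reaction. Mature red cells cannot build purines from the start.

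Values are log2 signals as deposited, so that a difference of 1 is 2-fold, and each difference is MEL minus ES-EP over 2 arrays each. Its standard error (SE) is the moderated one of limma, which draws the variance of each gene toward that of all genes. A gene was called where its adjusted p (limma, Benjamini-Hochberg over 19938 genes) was below 0.05. Replicate arrays correlated at r = 0.998 over all genes in each cell type, and the median signal of an array was 5.68 or 5.67 for MEL, against 5.81 or 5.84 for ES-EP. The level below which 95% of 1027 olfactory receptor genes lay, which was 5.19 for MEL and 5.56 for ES-EP, served as background, since these genes belong to nasal sensory neurons. As many as 502 of those 1027 genes were themselves called, 41 higher and 461 lower in MEL, with a median difference of -0.20, so a small called difference can occur at background signal. For the cell type markers that follow, 43.2% of all genes were lower in MEL and 20.5% higher. In all, 7 of 9 erythroid genes were lower in MEL (the membrane anion exchanger Slc4a1 had 5.93 and 5.82 in MEL, against 11.25 and 11.44 in ES-EP), and Gata1, whose probes may also read the fusion gene, was higher. Of 7 pluripotent stem cell genes 5 were at background in both cell types. The summed linear signal of 5 megakaryocyte genes ranged from 1153 to 1243 in MEL and from 296 to 302 in ES-EP, with 4 of 5 higher in MEL. Of these 4, Ppbp was at background in both cell types and Gp9 differed by 0.28. The MEL sum was carried by Pf4 (8.85 in MEL, against 3.89 in ES-EP, means) and Itga2b (9.06, against 6.76), and Vwf was lower. The summed linear signal of 7 mast cell genes ranged from 277 to 285 in MEL and from 2771 to 3031 in ES-EP, with 6 of 7 lower in MEL. Of these 7 genes 4 were at background in both cell types, 3 of the lower ones among them, and the ES-EP sum was carried by Ms4a2, an IgE receptor chain (3.95 in MEL, against 11.05 in ES-EP, means), and Hdc, histidine decarboxylase (7.31 in MEL, against 9.28 in ES-EP). The part of these markers in the results below was not tested, and in bulk RNA fewer cells of a type and less RNA per cell cannot be told apart.

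The widest differences of the nucleotide genes lay in isozymes of PRPP and AMP synthesis and in purine breakdown, whereas the enzymes that assemble the purine ring differed by less than 0.3 on the log2 scale. Of the 42 measured genes 32 were called (76.2%), where 63.8% of all genes were called. There were 10 higher in MEL (23.8%, against 20.5% of all genes) and 22 lower (52.4%, against 43.2% of all genes). Of the 13117 genes above the olfactory level in at least 1 cell type, as 41 of the 42 were, 68.7% were called. In that set 28.7% were higher in MEL and 40% lower. The median difference of the 42 genes was -0.22, that of all genes -0.15. At least 2-fold differences were found in 8 of 42 genes, where 10.0% of all genes had one. The 4 that were higher in MEL were Adssl1, Ada, Ctps2 and Impdh1, and the 4 that were lower were Prps2, Gda, Ampd3 and Dhodh. The shares were not tested against those of all genes, and nothing particular to the pathway is read from them. By their means, 36 of the 42 genes lay above the olfactory level in both cell types, Prps2, Gda and Xdh lay below it in MEL alone, Adssl1 and Ada in ES-EP alone, and Ampd1 in both. For the 5 genes below it in 1 cell type the measured fold rests on background signal. A lower bound that takes the olfactory level of that cell type as the floor is given for each. For Prps2, Gda and Xdh that floor is the MEL level (5.19), which lies below the ES-EP level (5.56). Part of their bound is therefore the gap between the 2 levels, and it is not a strict one.

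**Figure D1:**
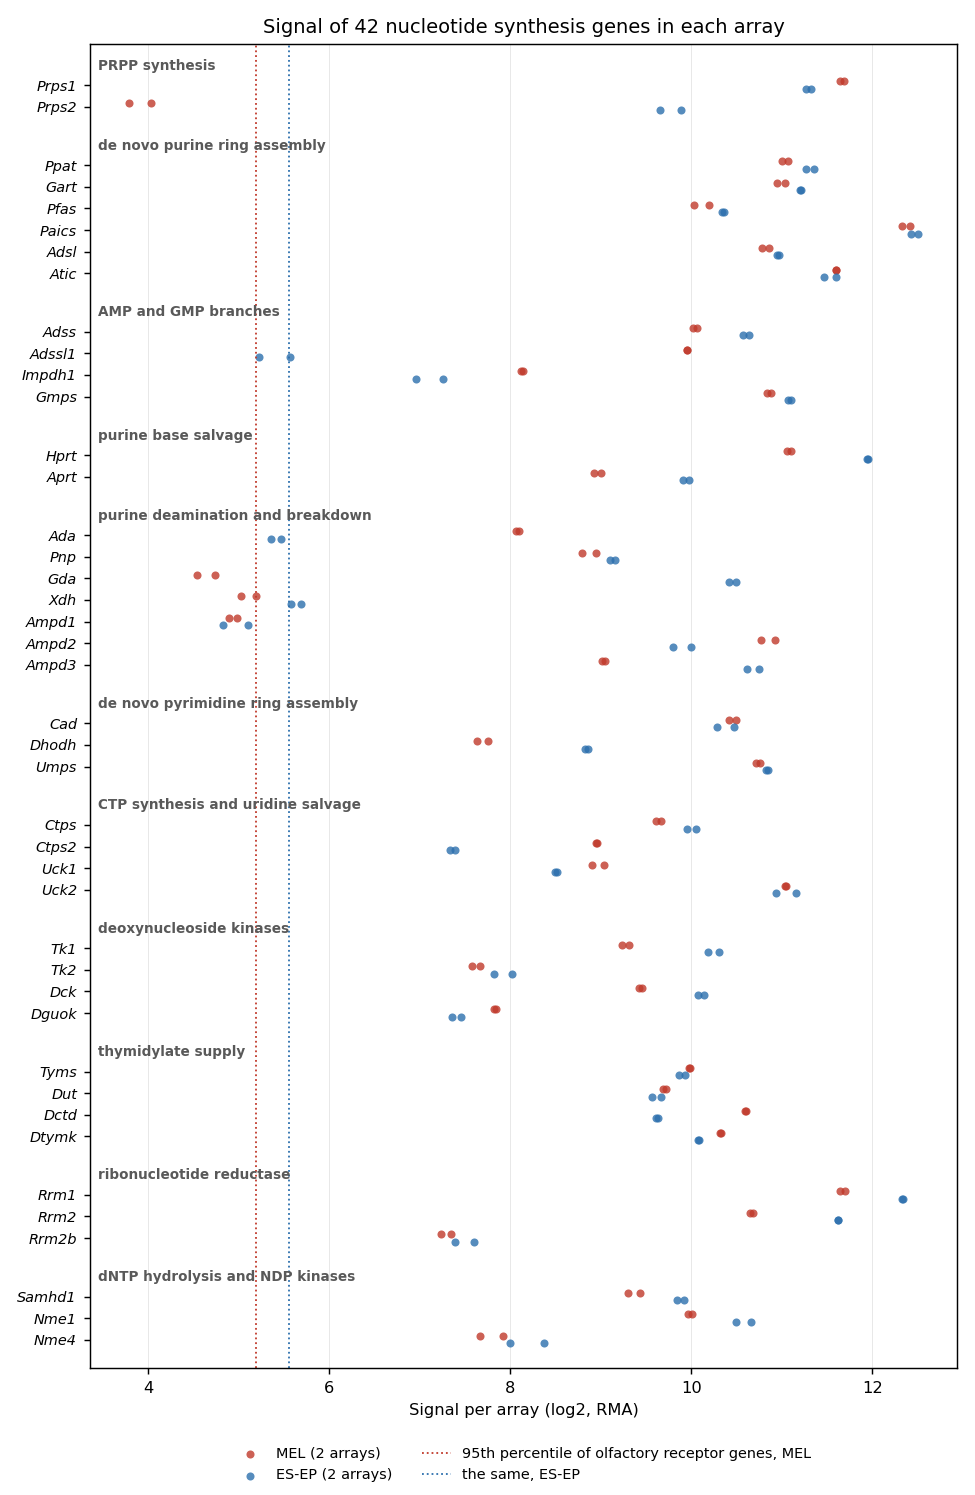
Log2 signal of each of the 42 nucleotide genes on every array, grouped by role, with MEL and ES-EP arrays in different colours and dotted lines at the olfactory level of each cell type (5.19 for MEL, 5.56 for ES-EP). Replicate arrays lie close together, and Prps2, Gda, Adssl1, Ada and Ampd3 show the widest gaps between cell types.

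PRPP, the sugar phosphate used to build both purines and pyrimidines, is made by PRPP synthetases, whose isozymes showed the widest split of the set. Prps2 had 3.79 and 4.03 in MEL arrays A and B, against 9.66 and 9.89 in ES-EP. Both MEL arrays lay at background and both ES-EP arrays far above it. The difference was -5.86 ± 0.11 (SE, 58.2-fold lower in MEL as measured, 23.9-fold against the MEL olfactory level, adjusted p = 2.24e-11). Prps1, the other isozyme, had 11.69 and 11.65 in MEL, against 11.32 and 11.26 in ES-EP. It was 1.3-fold higher in MEL (0.38 ± 0.08, adjusted p = 0.00208), without overlap of the arrays.

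Both PRPP synthetase genes lie on the X chromosome, and their promoters as listed by RefSeq (GRCm38.p6) are shown here to set the sequence of an isozyme at background in MEL beside that of its partner. The promoters of Adssl1, Gda, Ada and Ampd3, the other genes of the AMP branch and of purine breakdown with differences above 1.5 on the log2 scale, follow them. Of the 3 listed starts of Ampd3, the one shown was chosen because its window alone holds GATA-type letters. Each line gives the bases up to the start of the transcript in the direction of the gene, and capitals mark GATA-type letters, which are AGATAA and its forms that open with T, close with G or both, on either strand.
Prps1 (chrX:140456353-140456602, plus strand): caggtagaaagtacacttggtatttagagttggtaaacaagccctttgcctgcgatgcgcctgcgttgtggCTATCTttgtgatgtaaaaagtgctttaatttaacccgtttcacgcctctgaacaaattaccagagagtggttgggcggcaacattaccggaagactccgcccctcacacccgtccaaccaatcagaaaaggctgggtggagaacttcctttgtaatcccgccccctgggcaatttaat
Prps2 (chrX:167382750-167382999, minus strand): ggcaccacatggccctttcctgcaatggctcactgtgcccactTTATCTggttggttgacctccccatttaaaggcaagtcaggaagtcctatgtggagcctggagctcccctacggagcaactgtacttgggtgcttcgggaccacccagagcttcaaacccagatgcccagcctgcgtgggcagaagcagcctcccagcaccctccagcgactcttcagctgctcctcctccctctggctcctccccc
Adssl1 (chr12:112619797-112620046, plus strand): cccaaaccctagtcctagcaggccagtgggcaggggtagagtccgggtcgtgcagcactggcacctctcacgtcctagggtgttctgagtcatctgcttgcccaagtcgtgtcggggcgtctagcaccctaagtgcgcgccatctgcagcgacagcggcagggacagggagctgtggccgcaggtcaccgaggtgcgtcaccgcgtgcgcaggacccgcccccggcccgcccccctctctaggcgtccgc
Gda (chr19:21472662-21472911, minus strand): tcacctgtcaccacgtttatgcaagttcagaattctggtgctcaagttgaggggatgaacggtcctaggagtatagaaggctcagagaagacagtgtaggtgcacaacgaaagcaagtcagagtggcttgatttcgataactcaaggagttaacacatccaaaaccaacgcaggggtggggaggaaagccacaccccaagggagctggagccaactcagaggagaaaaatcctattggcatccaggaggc
Ada (chr2:163750240-163750489, minus strand): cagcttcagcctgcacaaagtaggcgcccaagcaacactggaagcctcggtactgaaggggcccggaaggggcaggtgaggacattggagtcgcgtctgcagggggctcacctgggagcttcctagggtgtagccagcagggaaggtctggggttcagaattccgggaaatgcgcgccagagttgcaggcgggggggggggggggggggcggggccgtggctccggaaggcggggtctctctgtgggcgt
Ampd3 (chr7:110773536-110773635, plus strand, the most downstream of its 3 listed starts): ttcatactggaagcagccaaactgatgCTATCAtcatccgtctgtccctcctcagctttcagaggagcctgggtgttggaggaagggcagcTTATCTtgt
Prps1 held 1 match, 179 bases before the start, and Prps2 held 1, 207 bases before it. Ampd3 held 2, at 73 and 9 bases before the start shown, and none was found in the stretches shown for Adssl1, Gda and Ada. Over windows from 250 bases before to 50 after each start, 11 of the 37 nucleotide genes with a listed window held such letters (29.7%), as did 33% of 27025 genes. The study's factor PU.1 has GAGGAAGT among its typical binding letters, which 2 of the 37 genes held (5.41%, against 3.69% of all), namely Adsl at 25 bases before its start and Ampd3 at 250 bases before the start shown. The E-box letters CACGTG stood in 6 of the 37 genes (16.2%, against 8.09% of all), which were Ampd3, Atic, Dtymk, Nme1, Paics and Tyms. E2F-type letters (TTTGGCGC, TTTCCCGC, TTTCGCGC or TTTGCCGC) stood in 2 of the 37 (5.41%, against 2.6% of all), Ppat and Prps2. CpG content, taken as observed over expected CpG in the 250 bases before each start, also varied. The ratio was 0.68 in Prps1 and 0.19 in Prps2, 0.84 in Adss and 0.72 in Adssl1, 0.33 in Gda and 0.55 in Ada. It was 0.70, 0.13 and 0.12 at the 3 listed starts of Ampd3, the last being the start whose nearest bases are shown. With the highest window of each gene, the median was 0.71 over the 37 genes and 0.62 over 15563 genes on the array. Letter matches and base content are descriptions of sequence and were not tested against expression.

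The 6 enzymes that assemble the purine ring on PRPP differed little. Ppat, the amidotransferase that takes the committed step, had 11.065 and 11.0015 in MEL, against 11.26 and 11.36 in ES-EP, a difference of -0.28 ± 0.08 (adjusted p = 0.0132). Gart, which carries 3 of the following reactions, and Pfas, the next enzyme, were lower by 0.21 ± 0.08 and 0.24 ± 0.09 (adjusted p = 0.0388 and 0.0354). Paics (-0.09), Adsl (-0.14) and Atic (0.07), the enzymes that finish IMP, were not called. All 3 calls among the 6 depended on scaling and on single arrays. Ppat was not called with median centring of the arrays (adjusted p = 0.179), without MEL B (0.0927) or without ES-EP B (0.0676). Gart and Pfas lost their calls under each of the 3 rescalings tried (adjusted p from 0.0979 to 0.486 for Gart and from 0.0952 to 0.389 for Pfas). Gart was not called without any 1 of the 4 arrays (0.068 without MEL A, 0.194 without MEL B, 0.0824 without ES-EP A, 0.0961 without ES-EP B), nor Pfas without MEL B (0.244), ES-EP A (0.0785) or ES-EP B (0.107). With a replicate block Gart also lost its call (adjusted p = 0.0587).

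From IMP, the AMP branch was also split between isozymes, but here the isozyme at background was so in ES-EP and not in MEL. Adssl1, the muscle-type adenylosuccinate synthetase, had 9.96 and 9.95 in MEL, against 5.23 and 5.56 in ES-EP. Its ES-EP mean of 5.39 lay below the olfactory level, and the difference was 4.56 ± 0.11 (23.6-fold higher in MEL as measured, at least 21.1-fold against that level, adjusted p = 1.17e-10). Adss, the non-muscle form, had 10.06 and 10.02 in MEL, against 10.57 and 10.64 in ES-EP, and was 1.49-fold lower (-0.57 ± 0.08, adjusted p = 0.000137). In the GMP branch, Impdh1, an IMP dehydrogenase, had 8.14 and 8.12 in MEL, against 6.96 and 7.26 in ES-EP. It was 2.03-fold higher in MEL (1.02 ± 0.10, adjusted p = 1.15e-05), while its partner Impdh2, the form of proliferating cells, has no value here. Gmps, which completes GMP, had 10.84 and 10.88 in MEL, against 11.10 and 11.07 in ES-EP (-0.23 ± 0.08, adjusted p = 0.0266). That call ended under all 3 rescalings (adjusted p from 0.0723 to 0.388) and without any 1 array (0.122 without MEL A, 0.0769 without MEL B, 0.0803 without ES-EP A, 0.0521 without ES-EP B).

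Both purine base salvage enzymes were lower in MEL, where 43.2% of all genes were lower. Hprt, which returns hypoxanthine and guanine to IMP and GMP, had 11.10 and 11.05 in MEL, against 11.96 and 11.94 in ES-EP (-0.87 ± 0.08, 1.83-fold lower, adjusted p = 5.22e-06). Aprt, its counterpart for adenine, had 9.004 and 8.92 in MEL, against 9.91 and 9.98 in ES-EP (-0.98 ± 0.08, 1.97-fold lower, adjusted p = 2.75e-06). In both genes the arrays of the cell types lay far apart relative to the replicates.

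The enzymes that deaminate and break down purines held several of the widest differences, in both directions. Gda, the deaminase that turns guanine into xanthine, had 4.74 and 4.54 in MEL, against 10.42 and 10.49 in ES-EP. Both MEL arrays were at background. The difference was -5.82 ± 0.09 (adjusted p = 1.22e-11), close in size to that of Prps2. Gda was 56.4-fold lower in MEL as measured and 38.4-fold against the MEL olfactory level. Ada, the adenosine deaminase whose loss causes severe immunodeficiency, ran the other way. It had 8.06 and 8.10 in MEL, against 5.47 and 5.36 in ES-EP, where it lay below the olfactory level (2.66 ± 0.08, 6.33-fold higher in MEL as measured, at least 5.73-fold against that level, adjusted p = 8.42e-10). The AMP deaminases, which convert AMP back to IMP, changed against each other. Ampd3, the red cell form, had 9.04 and 9.01 in MEL, against 10.62 and 10.75 in ES-EP (-1.66 ± 0.08, 3.15-fold lower, adjusted p = 4.2e-08). Ampd2 had 10.92 and 10.77 in MEL, against 9.80 and 10.00 in ES-EP (0.95 ± 0.10, 1.93-fold higher, adjusted p = 1.21e-05). Ampd1, the muscle form, was at background on all 4 arrays, with 4.89 and 4.98 in MEL, against 5.10 and 4.82 in ES-EP, and has no direction here (-0.03, not called). Pnp, which splits purine nucleosides, had 8.94 and 8.79 in MEL, against 9.16 and 9.10 in ES-EP (-0.27 ± 0.09, adjusted p = 0.0206). It was not called with median centring (adjusted p = 0.26), with cyclic loess (0.0697), without MEL B (0.164) or without ES-EP A (0.0852). Xdh, which makes urate from xanthine, had 5.19 and 5.02 in MEL, against 5.69 and 5.58 in ES-EP. Its called difference of -0.53 ± 0.09 (adjusted p = 0.000534) lies between background in MEL and just above it in ES-EP. The bound of 1.36-fold lower is taken from the MEL olfactory level of 5.19. The ES-EP level was 5.56, so much of this bound is the gap between the 2 levels, and no fold is read from it.

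**Figure D2:**
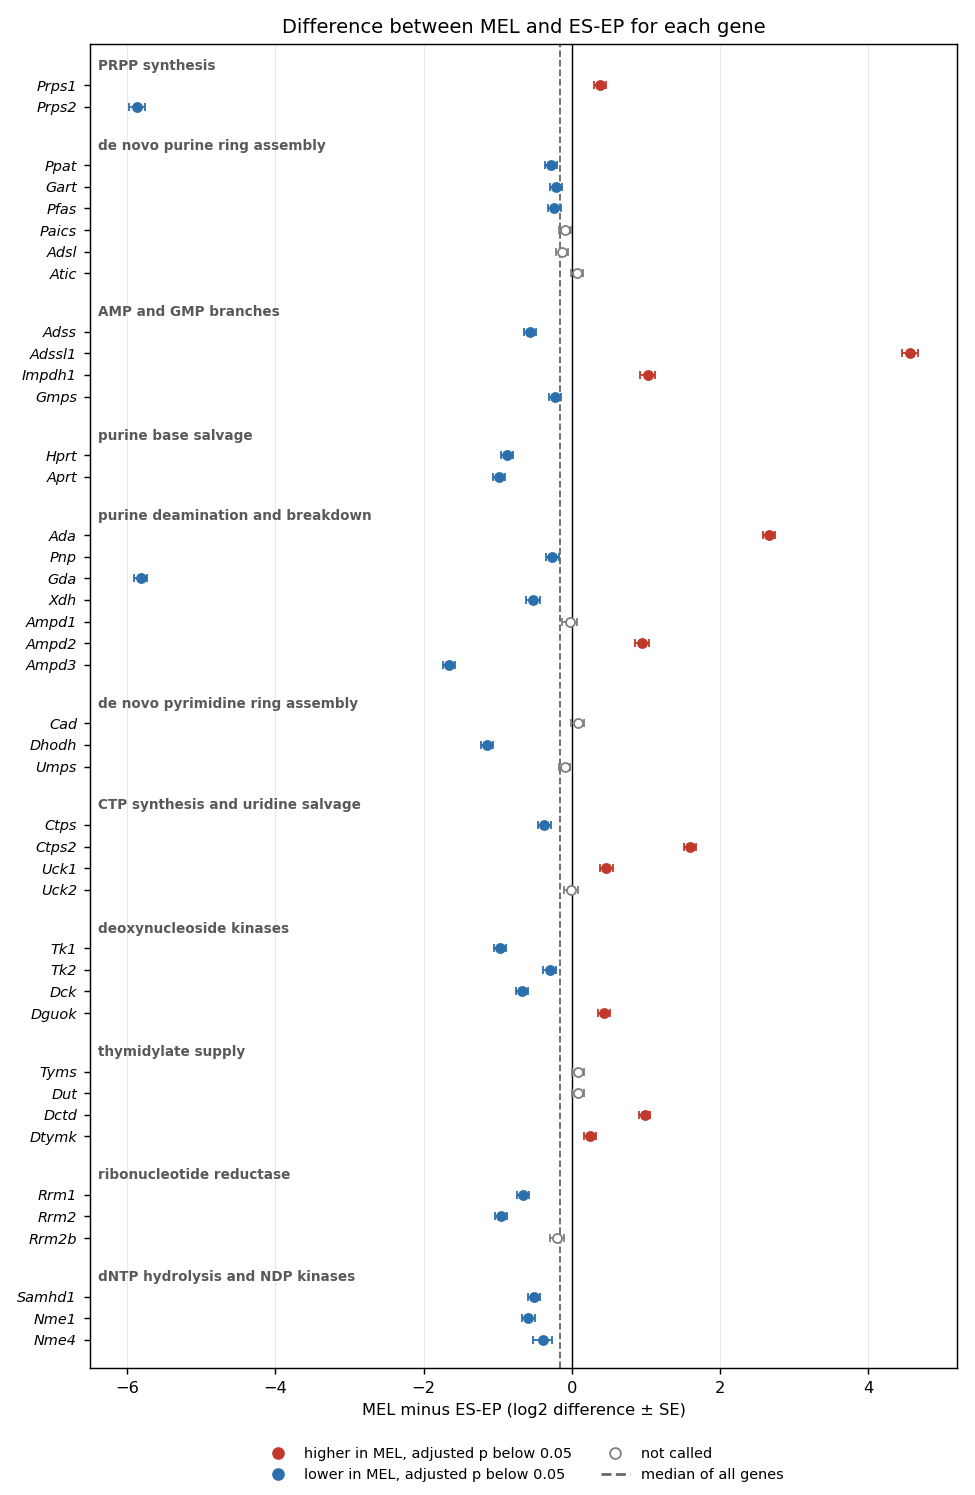
MEL minus ES-EP difference in log2 signal for each of the 42 genes, with bars of 1 SE colour by call (higher in MEL, lower in MEL or not called) and a dashed line at the median of all genes (-0.15). Differences run from -5.86 for Prps2 to 4.56 for Adssl1, and 22 of the 42 genes lie within 0.5 of 0.

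In the pyrimidine route 1 step stood out from the ring assembly. Dhodh, the mitochondrial dihydroorotate dehydrogenase, had 7.75 and 7.64 in MEL, against 8.83 and 8.86 in ES-EP (-1.15 ± 0.08, 2.22-fold lower, adjusted p = 7.88e-07). The enzymes before and after it were not called. Cad, the protein that performs the opening 3 reactions, had 10.49 and 10.42 in MEL, against 10.28 and 10.47 in ES-EP (0.08 ± 0.09), which overlap. Umps, which makes UMP, differed by -0.10 ± 0.08. Further on, CTP synthesis was again divided between isozymes. Ctps2 had 8.94 and 8.96 in MEL, against 7.39 and 7.33 in ES-EP (1.59 ± 0.08, 3.01-fold higher, adjusted p = 4e-08), and Ctps had 9.67 and 9.61 in MEL, against 10.05 and 9.96 in ES-EP (-0.37 ± 0.08, 1.29-fold lower, adjusted p = 0.0027). Of the uridine-cytidine kinases, which salvage these nucleosides, Uck1 had 8.91 and 9.03 in MEL, against 8.52 and 8.49 in ES-EP (0.46 ± 0.08, 1.38-fold higher, adjusted p = 0.000709). Uck2 had 11.04 and 11.03 in MEL, against 10.94 and 11.16 in ES-EP, which overlap, and was not called (-0.01 ± 0.09). A second, dimmer Uck2 probe set, looked at after the values were seen, gave 0.29 ± 0.09 (adjusted p = 0.0214 over 21789 probe sets), so the direction of Uck2 is not settled.

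The 4 deoxynucleoside kinases, which phosphorylate salvaged deoxynucleosides, were all called, where 63.8% of all genes were called. Tk1, the cytosolic thymidine kinase of S phase, had 9.31 and 9.24 in MEL, against 10.19 and 10.30 in ES-EP (-0.97 ± 0.08, 1.96-fold lower, adjusted p = 3.58e-06). Its second probe set gave -1.18 ± 0.08. Tk2, the mitochondrial thymidine kinase, had 7.67 and 7.57 in MEL, against 7.82 and 8.02 in ES-EP (-0.30 ± 0.09, adjusted p = 0.0157), and lost its call with median centring (adjusted p = 0.162), without MEL B (0.124) and without ES-EP B (0.108). Dck, the kinase of deoxycytidine and purine deoxynucleosides, had 9.42 and 9.45 in MEL, against 10.07 and 10.14 in ES-EP (-0.67 ± 0.08, 1.59-fold lower, adjusted p = 4.41e-05). Dguok, its mitochondrial relative, was 1.35-fold higher, with 7.82 and 7.85 in MEL, against 7.35 and 7.46 in ES-EP (0.43 ± 0.08, adjusted p = 0.00107).

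Of the 4 genes of thymidylate supply, 2 were higher in MEL and 2 not called. Of the 3 reductase subunits 2 were lower and 1 not called. Over all genes 20.5% were higher and 43.2% lower. Dctd, which deaminates dCMP to dUMP, had 10.61 and 10.59 in MEL, against 9.61 and 9.63 in ES-EP (0.98 ± 0.08, 1.97-fold higher, adjusted p = 1.93e-06). Dtymk, the thymidylate kinase, was higher by 0.24 ± 0.08 (adjusted p = 0.0197), a call that ended without MEL A (0.0891), MEL B (0.074) or ES-EP B (0.0572). Tyms, which makes dTMP, and Dut, which clears dUTP, each differed by 0.08 ± 0.08 and were not called. Rrm1, the large reductase subunit, had 11.69 and 11.65 in MEL, against 12.34 and 12.33 in ES-EP (-0.66 ± 0.08, 1.58-fold lower, adjusted p = 4.27e-05). Rrm2, the small subunit of S phase, had 10.65 and 10.68 in MEL, against 11.62 on both ES-EP arrays (-0.96 ± 0.08, 1.94-fold lower, adjusted p = 2.36e-06). Rrm2b, the p53-inducible small subunit, had 7.35 and 7.23 in MEL, against 7.39 and 7.59 in ES-EP, and was not called (-0.20 ± 0.09, adjusted p = 0.0874). It was called, lower in MEL, without ES-EP A (adjusted p = 0.031) and with quantile normalization (0.04).

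The remaining dNTP enzymes were lower in MEL, where 43.2% of all genes were lower. Samhd1, which hydrolyses dNTPs, had 9.44 and 9.30 in MEL, against 9.84 and 9.91 in ES-EP (-0.51 ± 0.09, 1.42-fold lower, adjusted p = 0.000448). Nme1, a nucleoside diphosphate kinase, had 10.01 and 9.97 in MEL, against 10.66 and 10.50 in ES-EP (-0.59 ± 0.09, 1.5-fold lower, adjusted p = 0.000191). Nme4, its mitochondrial relative, had 7.92 and 7.67 in MEL, against 7.998 and 8.38 in ES-EP (-0.39 ± 0.13, adjusted p = 0.02). That call was lost with median centring (adjusted p = 0.12), without MEL B (0.214) and without ES-EP B (0.184).

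Many dNTP genes are transcribed in S phase, so 11 S phase and proliferation genes were read beside them. Of these 11, 7 were lower and 3 higher in MEL, where 43.2% of all genes were lower and 20.5% higher. Among the lower ones were Pcna, the polymerase clamp (-0.55 ± 0.08), and the replicative helicase subunits Mcm6 (-0.58 ± 0.08) and Mcm7 (-0.60 ± 0.09). The higher ones were Ccne1 (0.63 ± 0.08), Mki67 (0.35 ± 0.08) and Mcm2 (0.27 ± 0.08), and Ccne2 was not called. Their median difference was -0.26, that of all genes -0.15, and their summed linear signal ranged from 21319 to 21907 in MEL and from 25672 to 26105 in ES-EP. That of the 42 nucleotide genes ranged from 48564 to 50161 in MEL and from 57755 to 59591 in ES-EP. The part of the S phase genes in the lower Tk1, Rrm1 and Rrm2 was not tested.

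**Figure D3:**
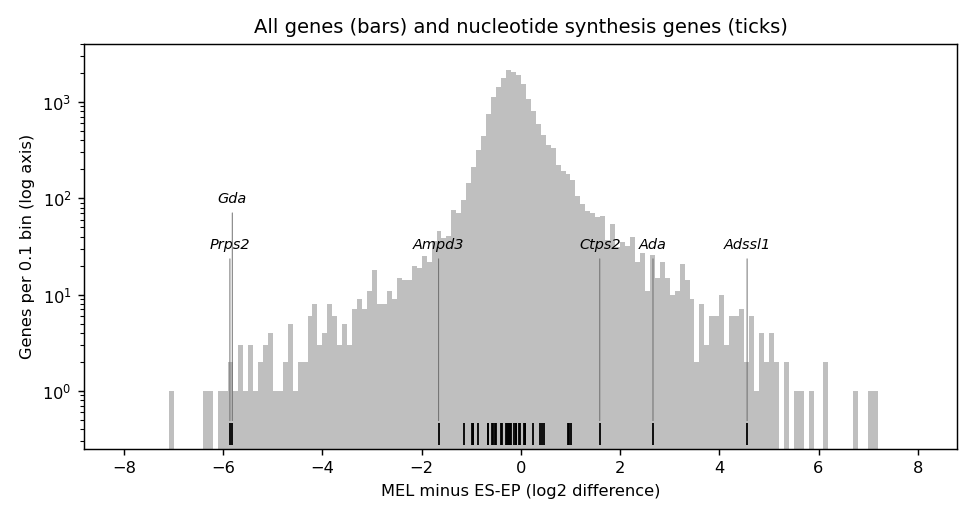
Distribution of the MEL minus ES-EP difference (log2) over all 19938 genes, shown as bars of genes per 0.1 on a log axis, with the 42 nucleotide genes as ticks along the bottom. Most ticks lie near the centre, and of the 42 Prps2 and Gda stand farthest to the left and Adssl1 farthest to the right.

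Within isozyme pairs both genes are read on the same arrays, so the gap between their differences is not moved by a constant shift of an array. Of 11 measured pairs, 5 were called in opposite directions. The AMP deaminases enter several of the 11. No share for pairs of genes in general was computed, and nothing particular to isozymes is read from this count. The difference of Prps1 exceeded that of Prps2 by 6.24 ± 0.13 on the log2 scale, and that of Adss fell short of that of Adssl1 by 5.13 (-5.13 ± 0.13). Taken as the gene named first minus its partner, the gap was 2.61 ± 0.13 for Ampd2 and Ampd3, -1.96 ± 0.11 for Ctps and Ctps2, and -1.09 ± 0.11 for Dck and Dguok. The sizes of the PRPP synthetase and adenylosuccinate synthetase gaps rest on a background signal in 1 cell type. Among the other 6 pairs, Tk1 and Tk2 were both lower in MEL (-0.67 ± 0.12 apart), as were Nme1 and Nme4 (-0.19 ± 0.15 apart), and Rrm2 and Rrm2b were -0.76 ± 0.12 apart. The 2 other pairs set Ampd1, which is at background, against Ampd2 and Ampd3. Uck1 and Uck2 were 0.48 ± 0.12 apart. The SE of each gap combines the SEs of its 2 genes as if independent, although both were read on the same arrays. These gaps between differences were not tested. Tested against a 1.2-fold difference in place of 0, Prps1, Ctps and Dguok were not called (adjusted p = 0.225, 0.261 and 0.0991), which leaves the Adss with Adssl1 and Ampd2 with Ampd3 pairs called in opposite directions. With Holm's adjustment Adss was not called either (adjusted p = 0.464), nor was Dck (0.122), which leaves Ampd2 with Ampd3.

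**Figure D4:**
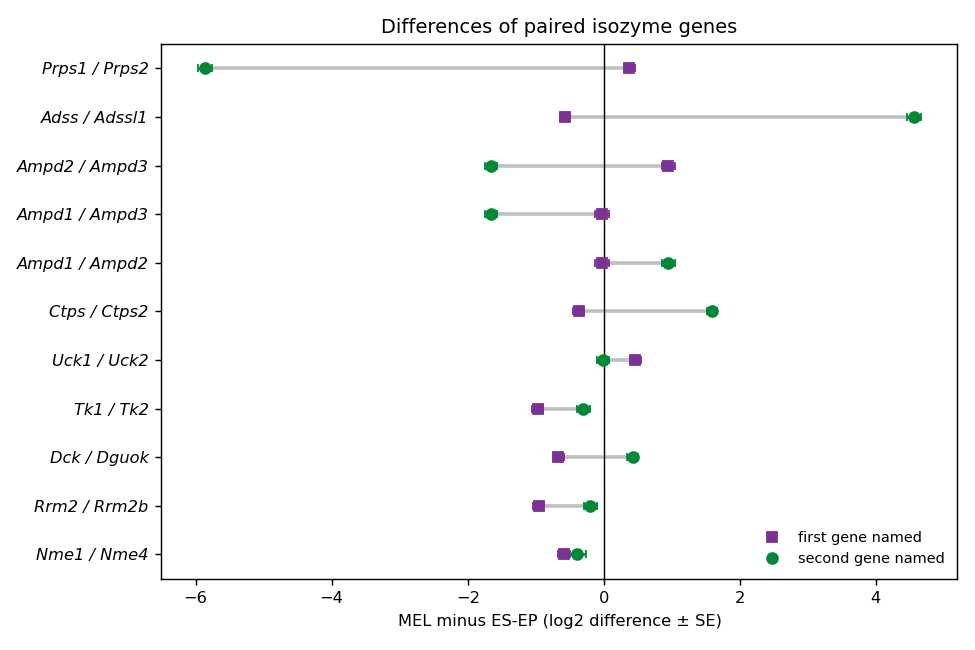
MEL minus ES-EP difference (log2, bars of 1 SE) of both genes of each of the 11 measured isozyme pairs, joined by a line. The longest lines join Prps1 to Prps2 and Adss to Adssl1, while Nme1 and Nme4 lie within 0.19 of each other.

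The other genes of nucleotide metabolism, 51 measured of 59 listed, held 12 higher in MEL (23.5%, against 20.5% of all genes) and 24 lower (47.1%, against 43.2%), with a median difference of -0.19. Transport showed the widest gap. Slc28a2, a concentrative purine nucleoside carrier, had 5.73 and 5.71 in MEL, against 8.75 and 8.65 in ES-EP (-2.98 ± 0.08, 7.88-fold lower, adjusted p = 3.21e-10). Slc29a1, the equilibrative nucleoside transporter, had 9.67 and 9.59 in MEL, against 10.77 and 10.81 in ES-EP (-1.16 ± 0.08, adjusted p = 6.09e-07). Transport genes held 4 lower calls among 8 measured (50%, where 43.2% of all genes were lower). Adk, which turns adenosine into AMP and competes with Ada for it, had 9.71 and 9.55 in MEL, against 10.62 and 10.78 in ES-EP (-1.07 ± 0.09, 2.1-fold lower, adjusted p = 3.48e-06). Nt5e, the surface enzyme that makes adenosine from AMP, had 6.85 and 7.01 in MEL, against 5.13 and 5.12 in ES-EP, which is background there (1.81 ± 0.09, at least 2.59-fold higher, adjusted p = 2.74e-08).

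Kinases and partners of the core enzymes went both ways. Ak4, a mitochondrial adenylate kinase, had 9.05 and 9.09 in MEL, against 7.30 and 7.44 in ES-EP (1.70 ± 0.09, 3.25-fold higher, adjusted p = 4e-08). Prpsap2, a regulatory partner of the PRPP synthetases, had 9.06 and 8.93 in MEL, against 8.007 and 7.95 in ES-EP (1.02 ± 0.09, adjusted p = 2.71e-06). Cmpk2, a mitochondrial UMP-CMP kinase, differed by 1.41 ± 0.08, but no floor-based fold can be given since its MEL values of 5.50 and 5.60 lay near background. Uprt, a homolog of microbial uracil salvage enzymes, was higher by 1.28 ± 0.11, and Cda, the cytidine deaminase, by 0.93 ± 0.08. Nt5c3, the pyrimidine nucleotidase of red cells, was lower by 1.02 ± 0.08 (-1.02, 2.03-fold). The folate enzymes that supply carbon for purines and dTMP were divided, with Mthfd1, the cytosolic enzyme, at -0.74 ± 0.08, Mthfd2, its mitochondrial relative, at 0.71 ± 0.08, and Shmt2 at -0.28. Among other called genes with the widest differences in their groups, Nme7 (0.79), Nme6 (0.52), Upp1 (0.64), Adal (0.51) and Nt5c3b (0.43) were higher, and Nme3 (-0.62), Slc25a36 (-0.40), Nudt1 (-0.38), Nudt16 (-0.36) and Dctpp1 (-0.34) were lower. Upp1 was at background in ES-EP. Dpys and Lacc1, also called, were at background in both cell types and have no direction here.

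Because the deposited arrays differed in their medians, each call was repeated after quantile normalization, median centring and cyclic loess, which moved the median difference of all genes from -0.15 to -0.03, -0.01 and 0.00. The share of called genes that were higher in MEL was 32.2% as deposited and 47.2%, 50.5% and 51% after the 3 rescalings. Of the 32 called nucleotide genes, 25 were called in the same direction in all 3, all 10 that were higher in MEL and 15 of the 22 that were lower. The 7 others, Gart, Gmps, Pfas, Pnp, Ppat, Tk2 and Nme4, had differences between -0.39 and -0.21. When limma was refitted and adjusted over all probe sets, named or not, the p-values themselves changed as well as their adjustment. The adjusted p of Prps2 was 3.74e-05 there, against 2.24e-11 in the main fit. In that refit Gart, Gmps, Pfas, Pnp, Tk2 and Nme4 lost their calls (adjusted p from 0.0589 for Gmps to 0.11 for Nme4). This left 10 genes higher and 16 lower. Median centring in turn called Atic, Cad, Dut and Tyms, each higher in MEL by 0.22 to 0.23. Over 15 alternative settings, which also left out each array, 14 genes were called in the same direction every time. The 6 that were higher were Adssl1, Ada, Ctps2, Impdh1, Dctd and Ampd2, and the 8 that were lower were Prps2, Gda, Ampd3, Dhodh, Aprt, Tk1, Rrm2 and Hprt.

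**Figure D5:**
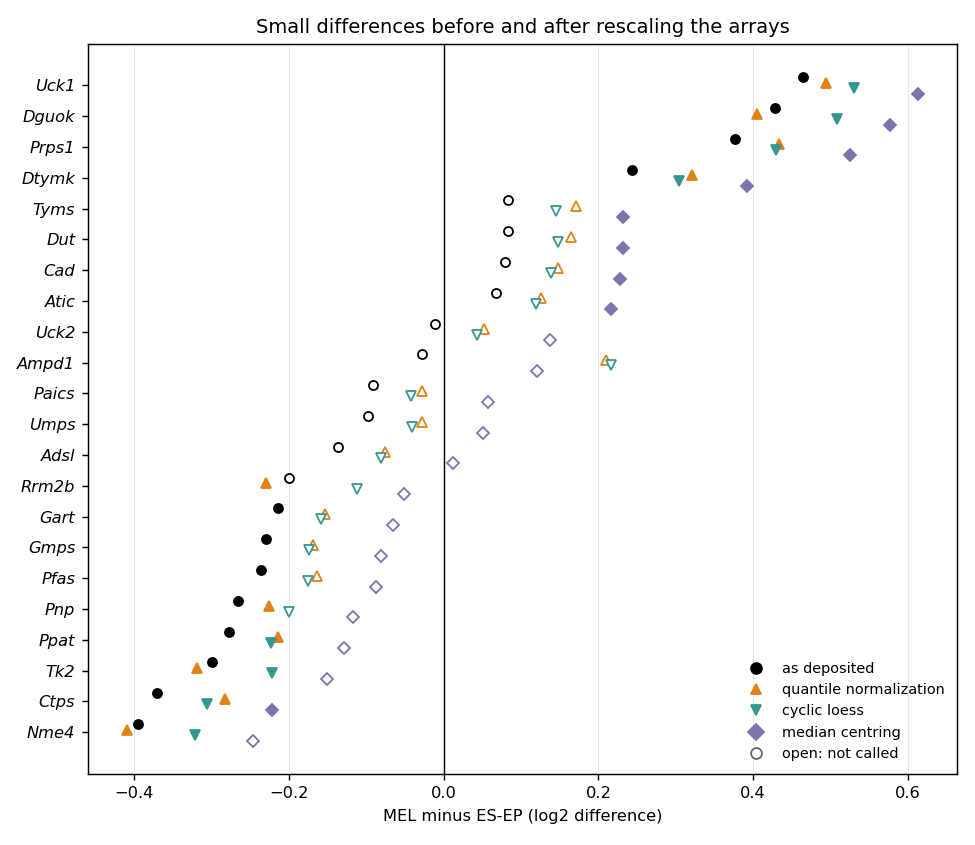
MEL minus ES-EP difference (log2) of the 22 nucleotide genes that differed by less than 0.5, as deposited and after quantile normalization, cyclic loess and median centring, with filled symbols for called genes and open ones for genes not called. Median centring moves every point to the right, and the filled symbols of Gart, Gmps, Pfas, Pnp, Ppat, Tk2 and Nme4 become open.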

How the data were processed

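Total RNA from 2 MEL and 2 ES-EP cultures was hybridized to 1 array each. With GeneSpring GX the authors ran RMA on the scans and deposited log2 signals, 1 column per array, for 35557 probe sets. RMA corrects background, equalizes distributions and summarizes probes, yet the deposited medians still differ, so small differences depend on scaling. Probe sets were named by the array's gene table where it gave a single symbol (21789), and those with several (1621) or none listed (12147) were left out. The brightest probe set over the 4 arrays stood for each of 19938 genes. MEL minus ES-EP was tested two-sided with limma 3.58.1 in R 4.3.3, where eBayes moderated an unblocked fit that had 2 residual degrees of freedom and 8.20 prior ones, with Benjamini-Hochberg adjustment at 0.05. An exact permutation of 2 against 2 arrays cannot go below p = 0.333. Whether the duplicate cultures were grown from separate stocks is not given in the sources used here. The p-values therefore rest only on the spread between these cultures, with each gene's own spread drawn toward that of all genes fitted. The number of arrays limits the precision. No detection calls were used. On simulated arrays with the real genes' means and fitted variances, 98.5% of 67 genes changed by 0.5 were recovered. Of those changed by 1 or 2, 100% were recovered, and 8 other genes of 19938 were called. The simulated noise was independent, with no shift of arrays or of background signal, so that count does not estimate false calls in these data.

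The members and all lists were chosen with earlier results of these data known. Per-array values are given for called members that differ by at least 0.5, for isozyme pairs and for members at background in 1 cell type. From the other pathway list, up to 3 called genes per role group with the widest differences are named. Alternatives were quantile normalization, median centring, cyclic loess, 2 signal filters, averaging a gene's probe sets, and refitting and adjusting over all probe sets. Others were a replicate block, a robust trended eBayes, Holm in place of Benjamini-Hochberg and a null of 1.2-fold in place of 0. Each array was also omitted in turn. The second probe sets of Tk1 and Uck2, a filter on the olfactory level and the GATA-type letters were added after values were seen. Promoters are RefSeq windows of GRCm38.p6, and the array's own probes were not mapped. Pfas, Xdh, Ampd1, Dhodh and Rrm2b have no window in the table used. The planned protein identity of isozymes was not computed.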

Additional observations from a re-analysis of the deposited data

How the results depend on the processing

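No called nucleotide gene changed direction under any alternative, but many small calls ended. Holm's adjustment left 6 nucleotide genes higher and 8 lower in MEL, and the test against a 1.2-fold difference left 6 higher and 14 lower. Over all genes Holm's adjustment gave 1484 higher and 1353 lower, and the 1.2-fold test 2488 and 3903. The count of all genes lower in MEL was 5644 with median centring, 5460 with cyclic loess and 3876 among genes at or above the median signal. The nucleotide genes' median difference was -0.073 with median centring. Of the other pathway genes, 7 were higher and 5 lower with Holm's adjustment, 7 lower in the 1.2-fold test and 14 lower with median centring, and between 15 (without MEL B) and 23 (without ES-EP A) were lower with 1 array left out. Leaving out 1 array left between 24 (without MEL B) and 29 (without MEL A or ES-EP A) of the 42 nucleotide genes called. The cause of these changes was not tested beyond the stricter rule or smaller number of arrays that each setting has by construction.

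Changes of sign occurred in uncalled genes alone. With median centring the difference was 0.057 for Paics, 0.012 for Adsl, 0.12 for Ampd1, 0.051 for Umps and 0.14 for Uck2. With quantile normalization it was 0.21 for Ampd1 and 0.052 for Uck2, with cyclic loess 0.22 for Ampd1 and 0.0435 for Uck2, and as the mean of its probe sets 0.14 for Uck2. Leaving out 1 array moved Ampd1 between -0.16 and 0.11, Cad between -0.012 and 0.17, and Uck2 between -0.12 and 0.10.

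The letters A and B number the cultures in both cell types, and the deviations of same-lettered arrays correlated at r = -0.04 over genes. The labels do not say whether same-lettered cultures were handled together, and this correlation cannot settle it. With a replicate block 10 nucleotide genes were higher and 21 lower, and Gart alone lost its call. Signal near background limits the folds of Prps2, Gda, Adssl1, Ada and Xdh.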
